A study of Mus musculus with 8 samples.

Results

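The cytoskeletal genes described here were the actins Actb and Actg1, the alpha-tubulins Tuba1a, Tuba1b and Tuba1c, the beta-tubulins Tubb5, Tubb4b, Tubb2a and Tubb6, and the intermediate filament gene Vim, 10 genes among the 65265 rows of the short-read gene table. Each gene was matched by position: the assembled locus of the same strand with the best overlap with the annotated gene was taken, with a Jaccard index (shared bases over the bases covered by either) of at least 0.5, and all 10 genes found such a locus. HL1, a line of mouse atrial cardiac muscle cells, was grown with 0.1 mM norepinephrine, and its nuclei were treated with urea at 0.5 M, the supernatant being the nucleoplasm fraction and the pellet the chromatin fraction. No agent or genotype set the libraries apart, since every library came from the same line and medium. RNA of both fractions from 3 cultures gave 6 stranded short-read libraries with reads of 50 bp, and chromatin RNA gave 2 Nanopore long-read libraries, with no long-read library of the nucleoplasm. Fractions were taken from the sample titles, since a second label reads chromatin for the nucleoplasm libraries too.

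Actin and tubulin are the subunits of microfilaments and microtubules, and vimentin builds intermediate filaments in cells of mesenchymal type. Their mRNAs are translated in the cytoplasm on free ribosomes, so that a nucleus holds the nascent transcripts on the template and the finished ones on their way out. Cells adjust tubulin synthesis by degrading tubulin mRNA on the ribosome when free tubulin is in excess, and actin genes are controlled by serum response factor (SRF), whose coactivators of the MRTF family are held back by free actin. Because these genes are abundant in most cells, they also serve as markers of mature mRNA when nuclei are fractionated.

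Reads of 50 bases have to tell the alpha-tubulin genes apart, and their coding sequences are close to each other. Compared base by base without gaps, the coding sequences of Tuba1a and Tuba1b were 98.3% identical, those of Tuba1b and Tuba1c 98.1%, those of Actb and Actg1 88.6%, and those of Tubb5 and Tubb4b 82.4%.

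The share of each annotated transcript that occurs letter for letter in another gene varied widely over these genes. Of the 50-base windows of the main transcript, 73.0% of Tuba1b, 61.6% of Tuba1a and 61.0% of Tuba1c were also found in transcripts of other genes, and in the coding part the shares were 94.8%, 82.7% and 90.8%. Actg1 shared 55.9%, most with its processed pseudogenes, Tubb4b 50.9%, with 3 pseudogenes, and Tubb2a 49.6%, most with the neighbouring paralog Tubb2b. Actb shared 14.2%, Tubb5 0.115%, and Tubb6 and Vim 0%. The counts of the alpha-tubulins, of Actg1, Tubb4b and Tubb2a can therefore depend on how reads with several matches were divided, which is not given in the sources used here, while Tubb5, Tubb6 and Vim had few or no such windows.

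Promoters were read from RefSeq sequences of GRCm38.p6, from 250 bases before to 50 after the gene start, which were found for 8 of the 10 genes, all but Actb and Tubb6. Of 4 motifs searched on both strands, the CArG box bound by SRF was found in Actg1 and in none of the other 7 promoters read, against 1.63% of 32851 promoters of the same length. TATAAA was found in Tubb4b, Tubb2a and Vim (13.6% of promoters), CCAAT in 6 genes (37.4%) and GGGCGG in 6 genes (35.7%). Counted from the gene start, the TATAAA match began at -29 in Tubb2a and -32 in Vim, but at 18, after the start, in Tubb4b. These are matches of letters and say nothing of binding. The 150 bases before the start are shown for Actg1 (chr11:120348496-120348645, minus strand), with its CArG box in capitals, and for Vim (chr2:13574161-13574310, plus strand), with TATAAA in capitals, as the members with the motif of the actin pathway and with the smallest difference between fractions. The starts used, 120348495 for Actg1 and 13574311 for Vim, are where the assembled loci begin, and both lie inside the annotated genes given below. The whole Vim stretch and the last bases of the Actg1 stretch are therefore within the annotated gene.
Actg1: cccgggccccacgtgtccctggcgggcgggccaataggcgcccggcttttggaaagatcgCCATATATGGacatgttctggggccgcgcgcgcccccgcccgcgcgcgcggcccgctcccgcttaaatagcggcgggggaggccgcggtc
Vim: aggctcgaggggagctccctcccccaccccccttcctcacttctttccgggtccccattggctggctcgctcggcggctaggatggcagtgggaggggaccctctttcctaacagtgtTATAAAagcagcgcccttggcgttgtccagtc

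The short-read values were normalized counts, reads assigned to a gene divided by a size factor for the library. The reads behind them ranged from 91657034 to 121773350 per library. Cardiac markers fixed for the label were present: of 12, 10 were matched to a locus, led by Ryr2 (the calcium release channel of heart muscle), with Gata4 between 77622 and 82875 in chromatin and Myl7 (atrial myosin light chain) between 21146 and 43889 in nucleoplasm. Nppa, the atrial hormone gene, reached only 10.4 to 113 normalized counts. The collagen gene Col1a1, of the fibroblast list, was also abundant, at 101002 to 115918 in chromatin and 211147 to 344726 in nucleoplasm, whereas Tcf21 of that list was listed at 0 in every library. Of the endothelial list Cdh5 was listed at 0, but Kdr had 808 to 2570 and Tek 187 to 364 normalized counts, and the list summed to between 1049 and 2940 in any library. The immune list summed to between 76.8 and 180.0 in any library.

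Replicate 3 of both fractions stood apart in the sums of several of these marker lists. The summed cardiac list was 269891 in chromatin replicate 3, against 370234 and 361353 in replicates 1 and 2, and 112392 in nucleoplasm replicate 3, against 167554 and 177546. In chromatin Ryr2, with 101687 in replicate 3 against 177668 and 169195, held the largest share of the gap. The list did not move as a whole, since Mef2c (37937 against 20032 and 18238 in chromatin) and Gata4 were highest in replicate 3 of both fractions. The fibroblast list summed to 174008 in chromatin replicate 3, against 120670 and 135634, and to 461194 in nucleoplasm replicate 3, against 259209 and 253853. The smooth muscle list, of which 4 of 5 genes were tested and Acta2 was the most abundant, was lower in replicate 3, at 53938 in chromatin against 81543 and 84255, and at 149775 in nucleoplasm against 202874 and 206493. Acta2 made up most of that sum, and this list did not move as a whole either. Myh11 (704 against 467 and 380 in chromatin) and Cnn1 were highest in replicate 3 of both fractions, while Acta2 and Smtn were lowest. The endothelial list was also lower in replicate 3, at 1049 against 1717 and 1828 in chromatin and 1755 against 2940 and 2788 in nucleoplasm. Each of these 4 sums differed in the same direction in both fractions of replicate 3. Without replicate 3 of both fractions, a setting added after the data had been seen, all 10 cytoskeletal genes were still called lower in chromatin and their median log2 fold change was -1.96. In bulk RNA, fewer cells of a type and less RNA per cell cannot be told apart.

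Libraries were compared to ask which transcripts stay with chromatin and which are in the soluble nucleoplasm. The reference transcripts of each fraction separated widely. Malat1, a long noncoding RNA retained in the nucleus, had 1811938, 1629137 and 1443666 normalized counts in chromatin and 117007, 112363 and 115765 in nucleoplasm, Neat1, the scaffold of paraspeckles, had a log2 fold change of 4.38 ± 0.14 (SE) and the noncoding RNA Pvt1 one of 3.93 ± 0.20. Gapdh, a glycolytic enzyme, and B2m, the light chain of MHC class I, were lower in chromatin, by -2.07 ± 0.25 and -2.67 ± 0.13. Here and below, log2 fold changes are chromatin minus nucleoplasm on the scale of log2(normalized count + 1), and calls are limma's test with a Benjamini-Hochberg adjusted p below 0.05 over 35813 genes above 0 in at least 1 library.

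All 10 cytoskeletal genes were lower in the chromatin fraction, and in none did the 3 chromatin values overlap the 3 nucleoplasm values. Of all genes tested, 20.9% were called lower and 26.9% higher, and 23.8% had all chromatin values below all nucleoplasm values. Among the 10957 protein-coding genes with an assembled locus, 43.4% were called lower and 25.5% higher. The median log2 fold change was -2.00 over the 10 genes, -0.32 over the coding loci and 0.38 over all genes tested. The genes past a 4 fold difference were Actb, Tuba1a, Tuba1b, Tuba1c and Tubb5, 5 of 10, against 4.89% of all genes tested. The count was 3 without chromatin replicate 3 or without nucleoplasm replicate 2, 8 with quantile normalization and 0 with ERCC scaling. Over all genes tested, 1753 of 35813 were called and past 4 fold lower in the main fit. The numbers were 1636 of 34417 without chromatin replicate 3 and 1775 of 35595 without nucleoplasm replicate 2. They were 2482 of 35813 with quantile normalization and 210 of 35813 with ERCC scaling.

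**Figure D1:**
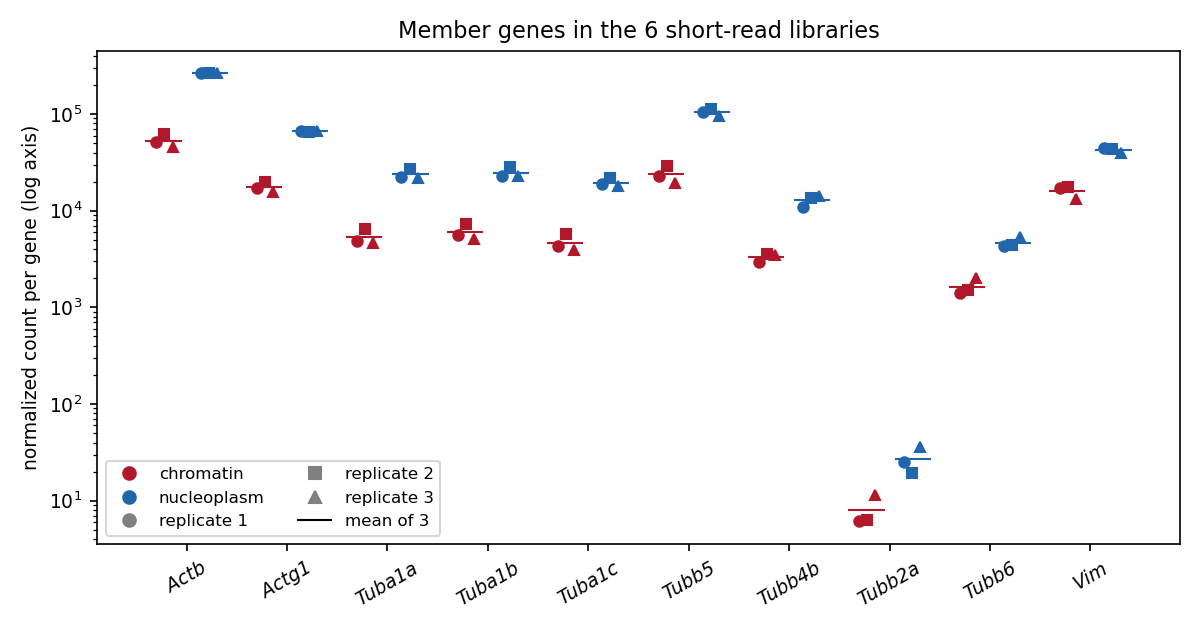
Normalized counts of the 10 genes in each short-read library, on a log axis, with chromatin in red, nucleoplasm in blue, a symbol for each replicate and a line at the mean of 3. Every gene has its red points below its blue points, with Actb highest and Tubb2a, below 40 normalized counts, lowest.

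Actb encodes beta-actin, the main actin of non-muscle cells, and lies at chr5:142903115-142906754 on the minus strand of mm10 with 6 exons. It had 51183, 61946 and 46106 normalized counts in chromatin and 264083, 264917 and 264597 in nucleoplasm. The lowest nucleoplasm library was 4.26 times the highest chromatin library, and the nucleoplasm values differed among themselves by a coefficient of variation of 0.159%, against 15.2% in chromatin. The log2 fold change was -2.33 ± 0.15 (SE, n = 3 and 3; limma, adjusted p = 8.09e-05), the largest of the 10, and 3.71% of all genes tested had a lower one.

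Actg1 encodes gamma-actin, which differs from beta-actin in few residues at the amino terminus, and lies at chr11:120345690-120348542 on the minus strand with 6 exons. Its values were 17297, 20023 and 15531 in chromatin and 67145, 64646 and 66480 in nucleoplasm. As for Actb, the nucleoplasm libraries lay close together with the deposited size factors, with a coefficient of variation of 1.96%, and the fractions were far apart. The log2 fold change was -1.92 ± 0.12 (limma, adjusted p = 6.93e-05), and the nucleoplasm mean was 3.75 times the chromatin mean.

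The alpha-tubulins, which pair with beta-tubulin in the dimer that microtubules are built from, lie within a stretch of chromosome 15 and have 4 exons each. Tuba1a (chr15:98949837-98953703, minus strand) had 4858, 6525 and 4590 normalized counts in chromatin and 22593, 26987 and 21798 in nucleoplasm. Tuba1b (chr15:98931425-98934565, minus strand) had 5551, 7300 and 5141 against 23079, 28490 and 22947. Tuba1c (chr15:99029891-99038110, plus strand) had 4290, 5685 and 3959 against 18749, 21998 and 17847. In all 3 genes replicate 2 was the highest library of both fractions, and the lowest nucleoplasm library was more than 3 times the highest chromatin library. The log2 fold changes lay close together, at -2.17 ± 0.17, -2.06 ± 0.17 and -2.08 ± 0.16 (limma, adjusted p = 0.000134, 0.000166 and 0.000151). As these genes share most of their coding sequence, their values may not be independent of each other, which was not tested.

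Among the beta-tubulins Tubb5, the form of most proliferating cells (chr17:35833921-35838306, minus strand), was the most abundant, with 22752, 29147 and 19210 normalized counts in chromatin and 103977, 112406 and 95679 in nucleoplasm. Tubb4b (chr2:25222160-25224702, minus strand), an isotype also used in cilia, had 2957, 3569 and 3509 against 11023, 13548 and 14302. Replicate 2 was the highest library of both fractions for Tubb5, but not for Tubb4b in nucleoplasm. The log2 fold changes were -2.15 ± 0.18 and -1.95 ± 0.13 (limma, adjusted p = 0.000182 and 9.45e-05).

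Tubb6, a widely expressed isotype, had 1402, 1523 and 2003 normalized counts in chromatin and 4316, 4396 and 5360 in nucleoplasm, with replicate 3 highest in both fractions. Its log2 fold change was -1.52 ± 0.16 (limma, adjusted p = 0.000536). Tubb2a (chr13:34074274-34078007, minus strand), an isotype abundant in neurons, was nearly absent, with 6.10, 6.29 and 11.4 normalized counts in chromatin and 25.3, 19.2 and 36.2 in nucleoplasm. Its groups did not overlap, and the log2 fold change was -1.65 ± 0.43 (limma, adjusted p = 0.0212), a value that moved to -1.03 with a pseudocount of 10 and to -2.82 with quantile normalization. With so few reads this call was the least firm of the 10, being lost with an adjusted p of 0.0612, 0.0621, 0.0594 and 0.0542 when chromatin replicate 1, chromatin replicate 2, nucleoplasm replicate 1 or nucleoplasm replicate 3 was left out.

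Vim encodes vimentin and lies at chr2:13573927-13582826 on the plus strand with 9 exons. It had 17091, 17616 and 13194 normalized counts in chromatin and 44153, 43959 and 39433 in nucleoplasm, replicate 3 being the lowest library of both fractions. The log2 fold change was -1.42 ± 0.14 (limma, adjusted p = 0.000371), the smallest of the 10, and the nucleoplasm mean was 2.66 times the chromatin mean.

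Normalization by the ERCC spike-in standards, which are added in a fixed amount to each fraction, raised the median log2 fold change of the 10 genes from -2.00 to -1.25, and that of all genes tested by 0.46. The scaling multiplies a whole library by a single factor, so genes with high counts shift nearly alike. Rows near 0 shift less because of the added pseudocount. The medians therefore do not show that the 10 genes moved more than other genes of high counts. On that scale the log2 fold change was -1.57 for Actb, -1.16 for Actg1, -1.40 for Tubb5 and -0.67 for Vim, all still called lower. Tubb6 had -0.77 (limma, adjusted p = 0.104) and Tubb2a -0.95 (adjusted p = 0.240), so that 8 of 10 genes were called. Of all calls, 19.4% were then lower in chromatin, against 43.7% with the deposited size factors.

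The 10 genes made up a small and fraction-dependent share of each library. Summed, they took 0.125%, 0.157% and 0.119% of the normalized counts of the chromatin libraries and 0.542%, 0.502% and 0.621% of those of the nucleoplasm. Actb alone was 40.2% to 40.7% of that sum in chromatin and 45.6% to 48.2% in nucleoplasm. The sum of the 4 beta-tubulins over that of the 3 alpha-tubulins was 1.84, 1.76 and 1.81 in chromatin and 1.85, 1.68 and 1.84 in nucleoplasm, so that this ratio overlapped between fractions.

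Levels between genes were compared as normalized counts per kb of the spliced main transcript, a measure that takes no account of introns. The counts are those of the assembled locus, which for Tuba1b reaches well past the annotated gene, so its place is less certain. In chromatin the order was Actb with 27645 ± 4213 (SD, n = 3), Actg1, Tubb5, Vim with 7281, Tuba1b, Tuba1a, Tuba1c, Tubb4b, Tubb6 and Tubb2a with 4.93. The ranges of the 3 libraries overlapped between Actg1 (mean 9025) and Tubb5 (8948), between Tubb5 and Vim, and between each neighbour from Tuba1b (3441) to Tubb4b (2093). In nucleoplasm Actb had 137777 ± 219, and Tubb5 with 39268 stood above Actg1 with 33858 without overlap. The other genes kept their places, and Tuba1b and Tuba1a were the neighbours that overlapped.

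Ratios of related genes within a library remove the scaling of the library, and 8 pairs were compared. The ratio of Actb to Actg1 was 2.96, 3.09 and 2.97 in chromatin and 3.93, 4.10 and 3.98 in nucleoplasm, a difference in log2 ratio of -0.41 ± 0.03 (SE). The ratio of Actb to Vim was 2.99, 3.52 and 3.49 against 5.98, 6.03 and 6.71, a difference of -0.91 ± 0.09. Between Tuba1a and Tuba1b it was 0.875, 0.894 and 0.893 against 0.979, 0.947 and 0.950, a difference of -0.11 ± 0.02, small but again without overlap. The assembled locus of Tuba1b (chr15:98929639-98934560, Jaccard index 0.636) runs past the annotated 3' end of the gene. Whether reads from there contribute to this difference was not tested. For each of these 3 pairs the exact permutation test gave p = 0.1 (two-sided, 0.267 after adjustment over the 8 pairs), the smallest p that 3 against 3 libraries allow. In each of these pairs every chromatin ratio was below every nucleoplasm ratio.

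The other 5 pairs overlapped between fractions when libraries were taken without their numbers. Tubb5 over Tubb4b was 7.69, 8.17 and 5.47 in chromatin and 9.43, 8.30 and 6.69 in nucleoplasm, a log2 difference of -0.20 ± 0.23. Tubb5 over Tubb6 differed by -0.63 ± 0.34, Tubb5 over Tubb2a by -0.38 ± 0.56, Tuba1b over Tuba1c by 0.02 ± 0.02 and Tuba1b over Tubb5 by 0.09 ± 0.07 (exact permutation p from 0.2 to 0.6, adjusted 0.4 to 0.6). Chromatin replicate 3 weighed on the pairs with Tubb5 first: without it Tubb5 over Tubb4b differed by -0.024, over Tubb6 by -0.34 and over Tubb2a by 0.058, and Tuba1b over Tubb5 by 0.054. Without nucleoplasm replicate 1, Tubb5 over Tubb4b differed by -0.089, Tuba1b over Tuba1c by 0.0019 and Tuba1b over Tubb5 by 0.042, and without nucleoplasm replicate 2, Tubb5 over Tubb2a by -0.10 and Tuba1b over Tuba1c by 0.039. Other libraries left out moved Tubb5 over Tubb4b and over Tubb2a the other way. These differences were -0.31 and -0.67 without chromatin replicate 2, and -0.34 and -0.68 without nucleoplasm replicate 3. With a pseudocount of 10, Tubb5 over Tubb2a differed by -1.12 (adjusted p = 0.2, exact permutation test). Same-numbered libraries deviated together, though weakly for replicates 1 and 2. Within each number the chromatin ratio was the lower in 3 of 3 for Tubb5 over Tubb4b (paired SE 0.09), over Tubb6 (0.14) and over Tubb2a (0.15), but in 1 of 3 for Tuba1b over Tuba1c and over Tubb5. An exact sign permutation test within numbers, added after the data had been seen, gave p = 0.25 for these 3 pairs with Tubb5 first, the smallest that 3 pairs allow. A p above the threshold does not show these ratios to be equal.

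**Figure D2:**
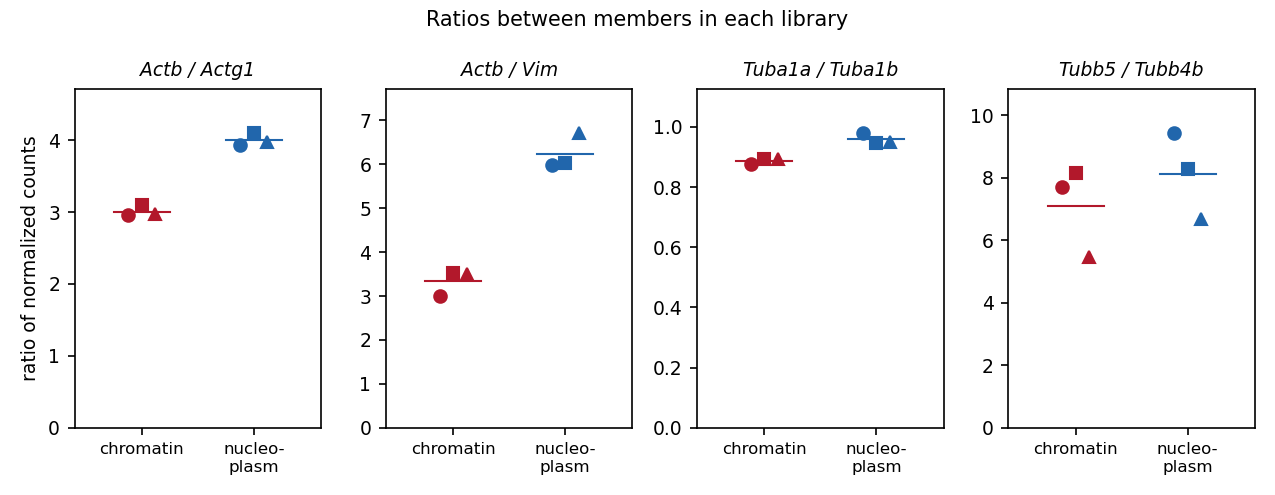
Ratio of normalized counts of 4 pairs of genes in each library (circle, replicate 1; square, replicate 2; triangle, replicate 3), with a line at the mean and each axis starting at 0. The ratios of Actb to Actg1, Actb to Vim and Tuba1a to Tuba1b do not overlap between fractions, while those of Tubb5 to Tubb4b do.

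The 10 genes occupy short loci, and the difference between fractions varied with locus span across the genome. Span here is that of the assembled locus, which for Tubb5 (chr17:35833918-35838938) is longer than the annotated gene and passes 5 kb. Over 9855 assembled protein-coding loci with a mean of at least 100 normalized counts, the Spearman correlation of span and log2 fold change was 0.528, given as a description over genes of the same libraries, which are not independent. Loci of up to 5 kb (955) had a median log2 fold change of -1.62 and 84.6% were called lower, those over 5 and up to 20 kb (3009) had -0.86 and 64.6%, those up to 100 kb (4442) had -0.16 and 38.0%, and longer loci (1449) had 0.58 and 15.5%. Actb, Actg1, Tuba1a, Tuba1b, Tubb4b and Tubb2a were in the shortest class. The first 5 lay below its median, while Tubb2a, whose mean is under the 100 asked of the class, had -1.65 ± 0.43 and did not differ from that median beyond its error. Tuba1c, Tubb5, Tubb6 and Vim were in the next class, and all 4 lay below its median. Of the loci of these classes, 33.9% and 8.28% had a log2 fold change below -2. Among the 10 genes themselves the correlation with span was 0.309.

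**Figure D3:**
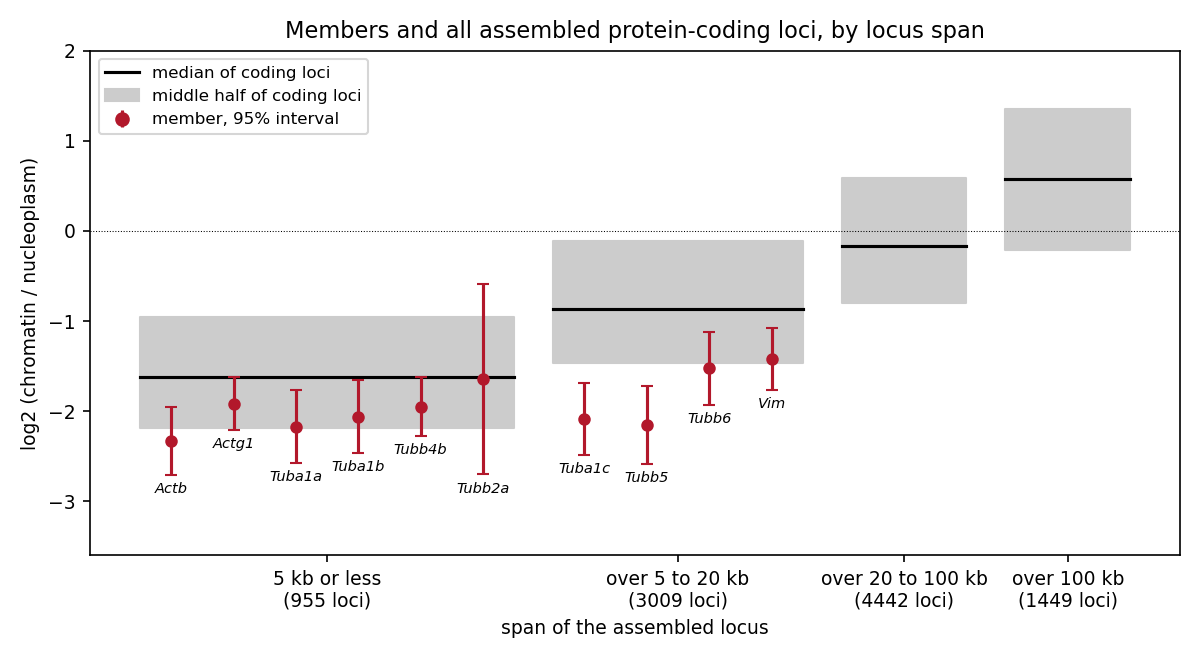
Log2 ratio of chromatin to nucleoplasm for the 10 genes (points, with 95% intervals of the limma fit) over the median (line) and interquartile range (grey) of assembled protein-coding loci of the same span. The medians run from -1.62 in loci of up to 5 kb to 0.58 in loci over 100 kb. All 10 points lie below the median of their class, Tubb2a by far less than the width of its interval.

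The genes with a symbol whose profile was most like that of Actb over the 6 libraries were sought among 9120 rows with a mean of at least 1000 normalized counts, by the root mean square distance of log2 values centred on their mean. They were Ndufb3, a subunit of respiratory complex I, at a distance of 0.030, Itm2b, a membrane protein, at 0.041, Pop5, a subunit of ribonuclease P, at 0.043, Tmem176a at 0.044 and the lysosomal protease Ctsb at 0.047. Of the cytoskeletal genes Tubb5 came nearest, at rank 104 and 0.122, followed by Tuba1a at rank 127, Tuba1c at 214, Tuba1b at 273, Actg1 at 427 and Tubb4b at 623. These ranks count every row, also those without a symbol. Vim at rank 1457 and Tubb6 at 1542 came last of those compared, and Tubb2a was below the level required.

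The wider cytoskeleton was described by 9 lists of 155 genes, of which 139 were tested. Of these 65 were called lower in chromatin and 25 higher, with a median log2 fold change of -0.48, against 43.4% and 25.5% of coding loci. With ERCC scaling the counts were 26 lower and 41 higher, at a setting where 8.30% of all genes tested were lower and 34.6% higher. Without replicate 3 of both fractions they were 75 and 32, at a setting where 25.4% of all genes tested were lower and 31.2% higher. The counts of each list below are given with those under ERCC scaling, which are to be read against the shares of all genes tested with ERCC scaling. This base is unlike the coding loci used for the main counts. With the deposited size factors 20.9% of all genes tested were lower and 26.9% higher, and no share of coding loci with ERCC scaling is given here.

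Of 4 other actins tested, 2 were lower (1 with ERCC scaling) and none higher. Acta2, the smooth muscle isoform, had 75780, 78944 and 49701 normalized counts in chromatin and 198285, 202137 and 145543 in nucleoplasm, a log2 fold change of -1.43 ± 0.24 (limma, adjusted p = 0.00359). Skeletal Acta1 fell by 1.55 on the same scale. Cardiac Actc1 was different: 37852, 35869 and 19074 in chromatin overlapped 36416, 35744 and 21517 in nucleoplasm, and the fractions differed by -0.04 ± 0.34 on the log2 scale (limma, adjusted p = 0.936). Replicate 3 was the lowest library of both fractions for Acta2 and Actc1. With ERCC scaling Acta2 was not called (-0.67, adjusted p = 0.0685).

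Of 12 other tubulins tested, 7 were lower, 1 was higher and 4 were not called, and with ERCC scaling 2 were lower and 1 higher. The gamma-tubulins of the nucleating ring complex had log2 fold changes of -1.84 ± 0.18 (Tubg1) and -1.85 ± 0.25 (Tubg2), and the alpha-tubulins Tuba4a and Tuba8 had -1.95 ± 0.41 and -1.66 ± 0.28, of which the last pair was not called with ERCC scaling (adjusted p = 0.129 and 0.144). Tube1, the epsilon-tubulin of centrioles, went the other way, with 1306, 1165 and 1198 normalized counts in chromatin and 549, 521 and 475 in nucleoplasm (1.25 ± 0.10). Tubd1, the delta-tubulin, had -0.49 ± 0.23 (limma, adjusted p = 0.137), and was called without replicate 3 of both fractions (-0.26, adjusted p = 0.0239).

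Proteins that bind actin monomers and the Arp2/3 complex, which nucleates branched filaments, had 14 of 22 genes lower and 2 higher, and 8 lower and 6 higher with ERCC scaling. Tmsb10, which sequesters actin monomers, had 614, 625 and 658 normalized counts in chromatin and 4230, 3714 and 3576 in nucleoplasm, a log2 fold change of -2.60 ± 0.09, and the Arp2/3 subunit Arpc3 (-2.43 ± 0.20) and cofilin, Cfl1 (-2.28 ± 0.12), which severs filaments, were close to it. Actr3 of the same complex (0.42 ± 0.11) and the capping protein gene Capza2 (0.30 ± 0.09) were called higher by a small margin, which was lost for both in edgeR (adjusted p = 0.0667 and 0.167) and turned in sign for Capza2 with quantile normalization, to -0.072. Leaving out chromatin replicate 1, chromatin replicate 2 or nucleoplasm replicate 2 also ended the call of Actr3 (adjusted p = 0.0557, 0.0502 and 0.0600), and leaving out any library but chromatin replicate 2 ended that of Capza2 (0.0507 to 0.116).

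Nucleators and formins, which elongate straight filaments, had 6 of 18 genes higher and 1 lower, Wasf1 (-0.78 ± 0.14, but -0.02 and not called with ERCC scaling). The count lower was 2 without chromatin replicate 3, with quantile normalization or TMM scaling, in edgeR and DESeq2, and with a block for the replicate number in limma. It was 3 with that block in edgeR and without replicate 3 of both fractions. With ERCC scaling 9 were higher and 0 lower. Diaph3, a formin, had 103217, 89964 and 101602 normalized counts in chromatin and 12349, 10337 and 12985 in nucleoplasm, a log2 fold change of 3.05 ± 0.13. Cobl, a nucleator, and Fhod3, a formin of the sarcomere, had 2.47 ± 0.19 and 1.95 ± 0.17.

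Crosslinkers, non-muscle myosin and stress fibre genes had 9 of 19 lower and 5 higher, close to the shares of all coding loci, and 3 and 6 with ERCC scaling. Lower were Tagln2 (-2.15 ± 0.29), calponin, Cnn1 (-1.99 ± 0.31; not called with ERCC scaling, adjusted p = 0.0786), and the myosin light chain Myl9 (-1.62 ± 0.33). Among those higher were the linker protein plectin, Plec (2.18 ± 0.18), and tropomyosin, Tpm1 (1.18 ± 0.15).

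Tubulin folding and tubulin mRNA control was the list with the largest share lower, 16 of 21, with a median of -1.50, and with ERCC scaling 8 were lower and 2 higher. The prefoldin subunit Pfdn6, which hands nascent actin and tubulin to the chaperonin, had -2.47 ± 0.22, and the folding cofactors Tbcb and Tbca had -2.18 ± 0.12 and -2.15 ± 0.09. The cofactor Tbce was higher, with 2898, 2590 and 3777 normalized counts in chromatin against 699, 708 and 789 (2.06 ± 0.15), as was Ttc5, the factor that recognizes nascent tubulin (0.36 ± 0.07), whose call was lost without the mean-variance trend in limma (adjusted p = 0.0591).

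Microtubule-binding proteins had 11 of 29 genes lower and 6 higher (3 and 11 with ERCC scaling, near the shares of all genes at that setting). Svbp, the partner of the vasohibin enzymes that remove the terminal tyrosine of alpha-tubulin, had -2.42 ± 0.27, the destabilizer stathmin, Stmn1, -1.93 ± 0.33, and Mapre2, which binds plus ends, -1.52 ± 0.32. Dystonin, Dst (2.26 ± 0.13), Map2 (1.49 ± 0.13) and Clasp1 (1.46 ± 0.21), which stabilize or link microtubules, were higher.

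Intermediate filament and lamin genes other than Vim had 5 of 11 lower and 2 higher (1 and 3 with ERCC scaling). The lamin gene Lmna had -1.47 ± 0.21, the peripherin gene Prph -0.79 ± 0.13 and Lmnb2 -0.58 ± 0.09, and of these Prph was not called with ERCC scaling (-0.03) and Lmnb2 turned in sign (0.17, adjusted p = 0.584). Nestin, Nes, had 2949, 3038 and 5983 normalized counts in chromatin and 832, 976 and 1771 in nucleoplasm (1.74 ± 0.39), and synemin, Synm, 1.23 ± 0.18. Of 3 SRF and MRTF regulators tested, Mrtfb was higher (1.29 ± 0.21) and the others were not called, all 3 being called higher with ERCC scaling. With a block for the replicate number, in limma and in edgeR, 2 of 3 were called higher. The same count was reached with DESeq2, with a mean of at least 10, with all same-strand rows of the gene, and without nucleoplasm replicate 3 or replicate 3 of both fractions.

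**Figure D4:**
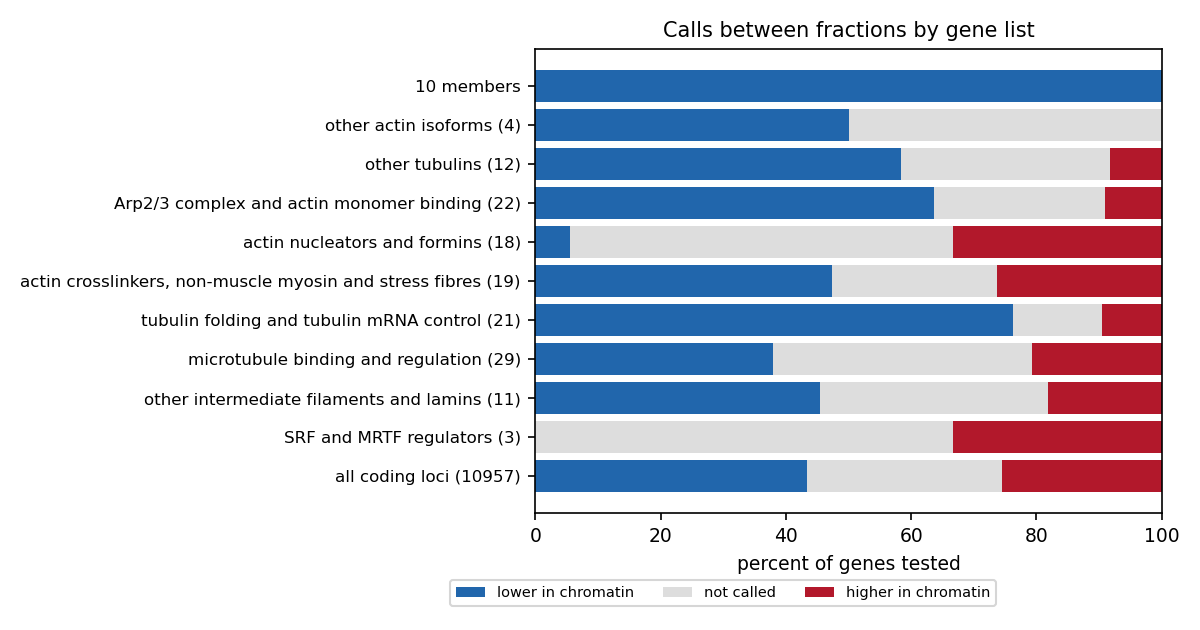
Percent of the genes tested in each list that were called lower in chromatin (blue), called higher (red) or not called (grey), with the number tested in parentheses. The bar of the 10 genes is wholly blue, tubulin folding has 16 of 21 genes lower, and actin nucleators and formins have 1 of 18 lower and 6 higher.

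In the long-read chromatin libraries, expression was given as TPM, StringTie's coverage of a transcript scaled so that a library sums to a fixed total, for each assembled or reference transcript, of which 109118 were above 0. Direct cDNA sequencing does not keep the strand an RNA was made from, so the strand of a long-read model, and any split of TPM by strand below, is that of the assembly and need not be that of the RNA. Per the methods, long reads were aligned in minimap2's splice mode with no search for canonical splice sites, and depth is not known from TPM. With 2 libraries of a single fraction there was no test. Same-strand transcripts lying wholly inside the 10 genes summed to 564 TPM in replicate 1 and 518 TPM in replicate 2, and 6 of the 10 genes had such a transcript above 0 in both.

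Vim was the clearest of them. Its reference transcript, the same-strand model inside the gene, had 333 and 192 TPM, and opposite-strand models inside the gene summed to 317 and 156 TPM. Actb had 144 and 210 TPM on its own strand and 121 and 353 TPM on the other. Tuba1b had 55.5 and 91.4 TPM, Tuba1c 19.8 and 15.4 TPM and Tubb6 11.5 and 9.30 TPM, with no opposite-strand model wholly inside these genes. The order of Vim and Actb differed between the libraries, while the order of Tuba1b, Tuba1c and Tubb6 did not.

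For the other genes the boundaries decided the value, as they did for the opposite strand of Tuba1b, where a model reaching 7 bases outside the gene had 45.0 and 103 TPM. Actg1 had only the entry of a small RNA inside it (0.015 and 0.009 TPM), but the assembled model of the gene, which ends 3 bases outside the annotation, had 110 and 52.6 TPM, and a longer same-strand model 306 and 172 TPM. An opposite-strand model over nearly all of Actg1 had 237 and 110 TPM. Tubb4b had none inside and 92.7 and 67.4 TPM in its reference transcript, which ends 2 bases outside. Tubb5 had none inside on its own strand, 160 and 183 TPM in models that extend farther out, and 167 and 228 TPM in an opposite-strand model within the gene. Tubb2a was listed at 0 in replicate 1 and had 0.967 TPM in its reference transcript in replicate 2, where a same-strand model of 24.7 kb over it had 12.03 TPM.

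Tuba1a had no model of its own. The same-strand models over it, 12 in number, were all longer than 20 kb and reached into Tuba1c, which is transcribed from the other strand, and 3 of them took in Tuba1b as well. They summed to 753 and 737 TPM, and the longest spanned 107 kb. On the plus strand 7 models joined Tuba1a and Tuba1c, with 153 and 204 TPM. Of the 12 minus-strand models 6 were above 0 in both libraries, so that the models differed more than their sum.

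Long models were also found over Actb. A model of 52.3 kb on the gene's strand had 833 TPM in replicate 2 and 0 in replicate 1, and one of 65.8 kb had 677 TPM in replicate 1 and 0 in replicate 2. Opposite-strand models of the same length, which reach the neighbouring gene of fascin, Fscn1, summed to 1236 and 685 TPM. Counting every same-strand model that shares a base with the gene, Actb had 821 and 1043 TPM.

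**Figure D5:**
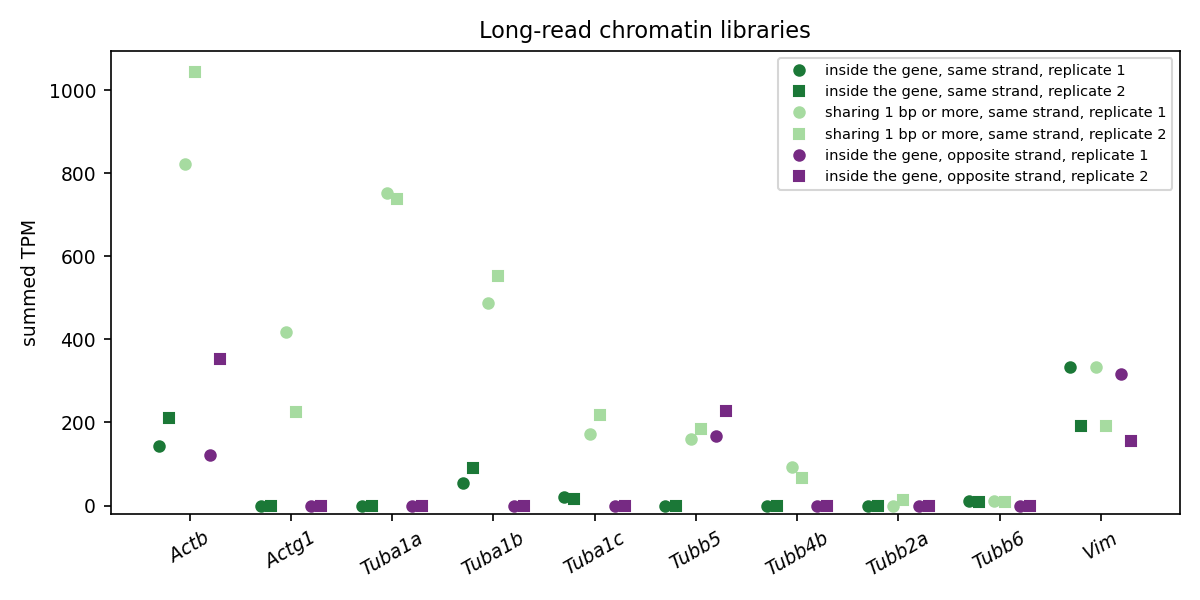
Summed TPM of each gene in the long-read chromatin libraries (circles, replicate 1; squares, replicate 2) for same-strand transcripts inside the gene (dark green), same-strand transcripts that share at least 1 bp with it (light green) and opposite-strand transcripts inside it (purple). For Actb, Tuba1a and Tuba1b the light green points lie far above the dark green ones, while for Vim and Tubb6 the pair coincides.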

How the data were processed

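The authors aligned short reads to mm10 with HISAT2 2.1.0, assembled loci with StringTie and deposited gene counts divided by DESeq2 size factors, a signal of which 100% of the values in each library were whole multiples (within 0.001) of the value of a single read. For long reads they deposited TPM, from minimap2 and StringTie (tools per the submitters' processing notes). Replicates were not pooled. The counts were taken as log2(normalized count + 1) and fitted across all genes with limma 3.58.1, edgeR 4.0.16 and DESeq2 1.42.0 serving as alternatives on the recovered reads (edgeR called 7659 genes lower and 7738 higher). The fits with limma, edgeR and DESeq2 were tested on simulated reads. Members, lists and the rule for named genes were chosen with earlier results of these data known. That rule took all 10 genes and the fraction references, every other actin and tubulin with a mean of at least 100, and from each other list up to 3 rises and 3 falls, the largest past the threshold with that mean. Of 155 list genes, 8 had no locus past the Jaccard minimum, 2 were older symbols of genes listed already and 6 were listed at 0. The libraries came from 3 separate cultures per the labels, and same-numbered libraries of the 2 fractions deviated together, weakly for replicates 1 and 2 (r = 0.120, 0.104 and 0.249 over genes with a mean of at least 10). Between libraries of unlike number r ran from -0.158 to 0.062, the highest being chromatin replicate 2 with nucleoplasm replicate 1. Some items that the rule names are not reported here.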

Additional observations from a re-analysis of the deposited data

How the results depend on the processing

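All 10 genes stayed lower in chromatin under each of 20 alternative settings, and 8 of them were called in all; Tubb2a was called in 14 and Tubb6 in 19, and Tubb2a was also lost without a filter on low values (adjusted p = 0.0541). The median log2 fold change of the 10 genes moved to -1.25 with ERCC scaling and to -2.33 with quantile normalization, and lay between -2.11 and -1.94 when a replicate was left out. With the replicate block it was -2.00 in limma and -2.11 in edgeR, and the block changed no call of these genes. In limma with the block, 72 list genes were lower and 33 higher, where 23.6% of all genes tested were lower and 28.8% higher. ERCC scaling gave 26 lower and 41 higher list genes, where 8.30% of all genes tested were lower and 34.6% higher. It turned Lmnb2 to 0.17, and quantile normalization turned Capza2 to -0.072. The cause was not tested. The log2 difference of Tubb5 over Tubb2a ran from -0.68 to 0.058 over the libraries left out. The summed long-read TPM, 541 on average, was 1212 with either strand, 2799 with any shared base, 371 with reference accessions alone and 703 with ends within 100 bp of the gene, a setting added after the data had been seen. Tubb2a rests on few reads, and the division of reads among the alpha-tubulins was not tested.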

Other observations

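The short-read libraries, unlike the long-read ones, keep the strand of the RNA, and opposite-strand loci were looked for there. A locus on the plus strand whose span takes in Tuba1b (chr15:98917969-98942526) had 71.2, 62.9 and 56.2 normalized counts in chromatin and 32.3, 40.8 and 20.3 in nucleoplasm, without overlap, and was higher in chromatin (log2 fold change 1.05, limma, adjusted p = 0.0386), the opposite direction to Tuba1b itself. Of all genes tested, 26.9% were called higher. The locus extends past Tuba1b (chr15:98931425-98934565) on both sides. Whether any of its reads come from the stretch over Tuba1b was not tested. The opposite-strand locus at Tubb4b was listed at 0 in 5 of 6 libraries. No opposite-strand locus was found over the other 8 genes, among them Actb, Vim and Tubb5, for which the long-read table, whose strand is that of the assembly, lists opposite-strand models.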
